A study of Hordeum vulgare subsp. vulgare with 8 samples.

Results

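The barley variety Harrington was compared with Bass, Stirling and Baudin for alternative 3′ splice site (A3S) and alternative 5′ splice site (A5S) events in germinating embryos. 1 library was sequenced for each of the 4 barley varieties after 24 h and 48 h of imbibition at 21 °C in the dark, so the comparison set 2 Harrington libraries against 6 others. No variety was sequenced more than 1 time at either time point, and each library came from pooled embryos of seeds grown in the same field trial. The times are those since the seeds were wetted, and no other treatment is given for any variety. An event was 1 gene with 3 exons: a constitutive exon, an annotated exon and the alternative form of that exon, and it was the same event in different libraries when the type, the gene and all coordinates were the same. Of 8325 distinct events in the 8 libraries, 32 were listed in both Harrington libraries and in none of the other 6, and 242 were listed in all 3 other varieties at either time and in neither Harrington library. These are called the Harrington-only and the Harrington-absent events, and they made up 0.384% and 2.91% of all distinct events. The presence or absence of an event chose these members and is not a finding.

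During splicing, the 5′ splice site marks the start of an intron and the 3′ splice site its end. When the spliceosome uses another 3′ or 5′ site, the next or the previous exon becomes longer or shorter, and the reading frame is kept only when the change is a multiple of 3 nucleotides (nt). A3S sites 3 nt apart, often a tandem pair of AG dinucleotides, are known from plants and animals to add or remove 1 amino acid. In cereal embryos, germination moves from the use of stored transcripts and the resumption of respiration to cell division and growth.

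The 8 lists held between 1711 and 2537 events, with 1768 in Harrington at 24 h and 1711 at 48 h. The median read depth of the annotated exon was 32.3 in Harrington and between 30.4 and 31.3 in the others at 24 h, and 25.8 against 27.0 to 28.0 at 48 h. Depths are the mean depths given in the lists and are not scaled for library size unless said. Some values of annotated and constitutive exons can only be means over covered bases, not over the full exon. A partly covered exon, mostly a shallow one, can therefore appear deeper than over its full length, and libraries may differ in this. The labels name the tissue as germinating seeds and the methods as embryos. Among the embryo markers that have a listed event, a late embryogenesis abundant protein gene (MLOC_77777), a lectin gene (MLOC_59149) and the viviparous 1 gene (MLOC_69727) were listed in all 8 libraries. Another late embryogenesis abundant protein gene, MLOC_6950, was listed in only 4 libraries, 1 of them of Harrington. Of the endosperm and aleurone markers, the alpha-amylase gene MLOC_63781 was listed in 5 libraries, none of Harrington, at depths of 4.02 to 6.13, and a seed storage albumin family gene (MLOC_64382) in 1 library, of Harrington. A gene without a listed event cannot be seen in these files, so these markers are only a partial check of the tissue.

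**Figure D1:**
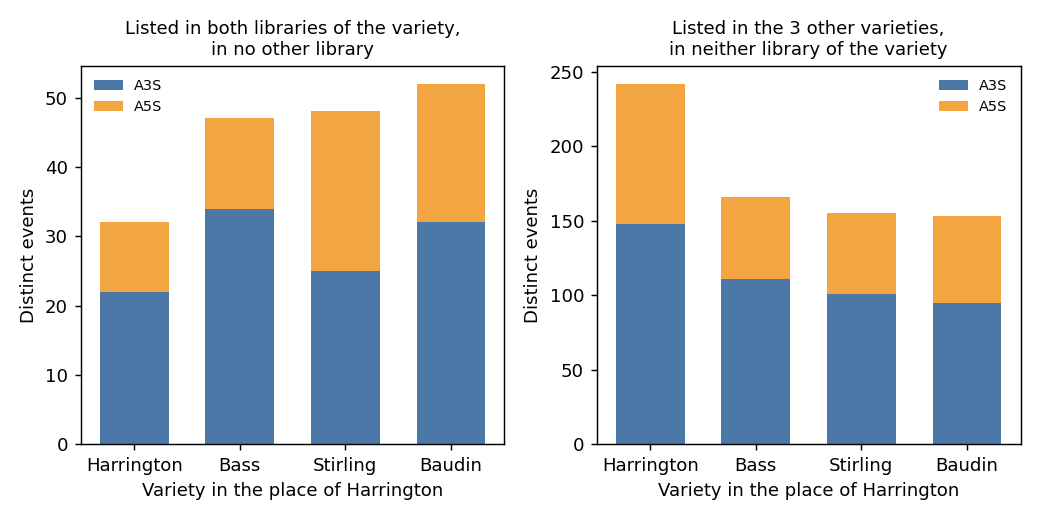
Number of distinct events (vertical axis) listed in both libraries of a variety and in no other library (left), and listed in the 3 other varieties but in neither library of the variety (right), for each variety in the place of Harrington, with A3S and A5S stacked. Harrington had the fewest of the first kind (32) and the most of the second (242).

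The 32 Harrington-only events were 5.85% of the 547 events listed in both Harrington libraries (95% Wilson interval 4.17 to 8.14%, counting error only). When each other variety was put in the place of Harrington, 47 events were found for Bass, 48 for Stirling and 52 for Baudin (mean 49 ± 2.65, SD, n = 3 varieties), or 7.08 to 7.72% of their own shared events. The count of Harrington was therefore below all 3 others and outside their spread. The two-sided exact permutation test over 4 varieties gave p = 0.25, which is the smallest this design allows. The Harrington-absent events behaved the other way. They were 25.1% of the 966 events listed in all 3 other varieties (22.4 to 27.9%), while 166 events were absent from Bass, 155 from Stirling and 153 from Baudin (158 ± 7.0, SD, n = 3; 17.4 to 18.7% of the corresponding events). Again Harrington lay outside the others (exact permutation p = 0.25, the smallest possible). Each variety stands in the others' comparisons, so these counts are not independent of one another. Leaving out Bass, Stirling or Baudin, which relaxes the rule, gave 53, 58 and 53 Harrington-only and 504, 559 and 521 Harrington-absent events. Just outside the rule were 59 events listed in both Harrington libraries and in 1 other library, and 369 events of all 3 other varieties that were listed in 1 Harrington library. Their median depths were 33.1 and 27.0, against 33.5 for the Harrington-only and 32.6 for the Harrington-absent events.

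The shortfall of Harrington stood out at 24 h and not at 48 h. When only the 24 h libraries were used, 183 of the 552 events listed in Bass, Stirling and Baudin were not listed in Harrington (33.2%), whereas the same share was 20.8% for Bass, 19.3% for Stirling and 22.5% for Baudin. At 48 h the share was 24.9% in Harrington (106 of 425 events), inside the range of 16.7% in Baudin to 26.5% in Bass. Of the 183 events missing at 24 h, 84 were listed in Harrington at 48 h. The Harrington list at 24 h was also the shortest of that time, with 1768 events against 2197 to 2537, while at 48 h it was 1711 against 1728 to 1937. The part of list length in the absence of an event was not tested.

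**Figure D2:**
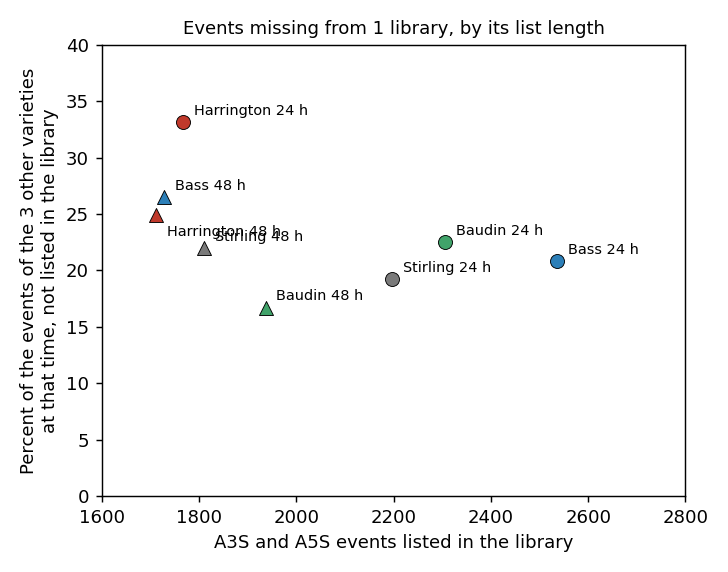
Percent of the events listed in the 3 other varieties at a time that were not listed in the library (vertical axis), against the number of events in that library (horizontal axis). Circles are 24 h and triangles 48 h. Harrington at 24 h stands at 33.2%, and the other 7 libraries lie between 16.7 and 26.5%.

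Of the 242 Harrington-absent events, 113 were listed in 3 of the 6 other libraries, 81 in 4, 38 in 5 and 10 in all 6. There were 36 events listed at 24 h in all 3 other varieties and never at 48 h, and 18 with the opposite pattern. The library of Bass at 24 h held 183 of the 242 and that of Bass at 48 h 125, with 136 to 165 in the remaining 4. In all, 237 events were listed in all 6 other libraries, so the 10 absent ones are the part of these most widely listed events that Harrington lacked. The same count was 10 for Bass, 6 for Stirling and 4 for Baudin.

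A3S was the more frequent type in both sets. It made up 22 of the 32 Harrington-only events (68.8%, 51.4 to 82.0%) and 148 of the 242 Harrington-absent events (61.2%, 54.9 to 67.1%), beside 65.7% of all distinct events. In the 724 events that all 3 other varieties shared with at least 1 Harrington library, 71.3% were A3S (67.9 to 74.4%). The absent sets of the other varieties held 62.1 to 66.9% A3S, all above Harrington (exact permutation p = 0.50, in a design that cannot go below 0.25). Harrington lacked 94 A5S events against 54 to 58 in the others, and 148 A3S events against 95 to 111.

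The alternative site was usually close to the annotated one. Its median distance was 12 nt for A3S in both sets, compared with 15 nt over all A3S events and 8 nt over the shared ones. For A5S the medians were 32.5 nt in the Harrington-only, 27 nt in the Harrington-absent, 27.5 nt in the shared and 23 nt in all events. Among the absent sets of the 4 varieties, the A5S distance of Harrington was the longest (27 nt against 16.5 to 19 nt) and the A3S distance the shortest (12 nt against 14 to 15 nt), both with an exact permutation p of 0.25, the smallest possible. The A5S median of the Harrington-only events was 20 nt without Bass, 18 nt without Stirling and 19 nt without Baudin. Changes of 3 nt were 22 of the 148 Harrington-absent A3S events (14.9%, 10.03 to 21.5%) and 1 of the 22 Harrington-only ones, MLOC_14763. They were 26.2% of the shared A3S events (22.6 to 30.1%) and 8.51% of all A3S events. In the absent sets of the other varieties the share was 10.9 to 13.7%, so it was below that of the shared events for each variety. A multiple of 3 nt was found in 13 of 32 Harrington-only events (40.6%), in 42.1% of the Harrington-absent events, in 50.3% of the shared events and in 37.5% of all events.

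**Figure D3:**
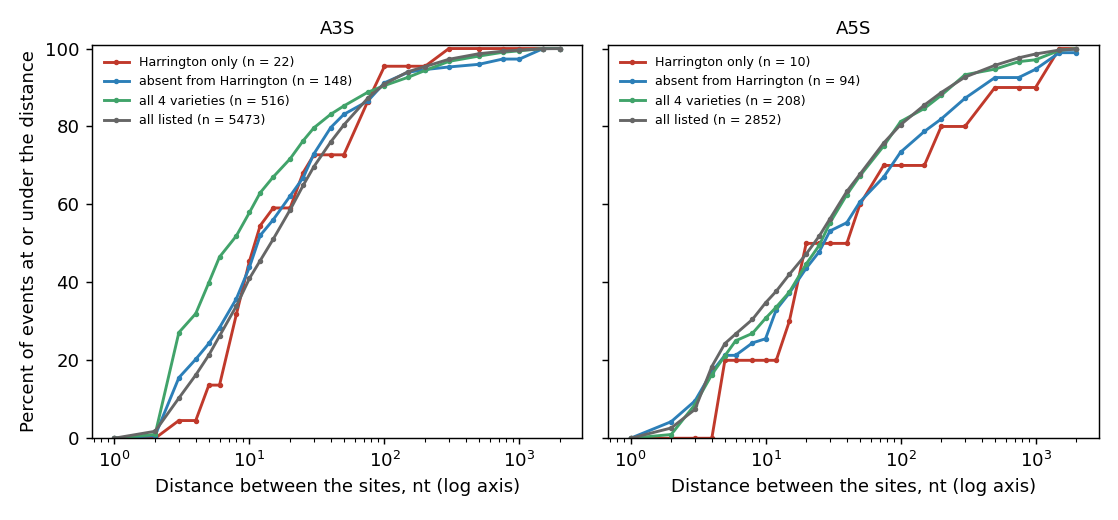
Percent of events (vertical axis) whose alternative site lies at or within a distance in nt of the annotated site (horizontal axis, log scale), for A3S (left) and A5S (right), in the Harrington-only, the Harrington-absent, the shared (all 4 varieties) and all listed events. At 3 nt and under, the A3S curve is at 27.1% for the shared, 15.5% for the Harrington-absent and 4.55% for the Harrington-only events.

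The alternative form was shorter than the annotated exon in 25 of the 32 Harrington-only events and longer in 7 (21.9%, 11.02 to 38.8%), while in the other varieties 29.8 to 39.6% of such events were longer. In the Harrington-absent events 96 of 242 were longer (39.7%), inside the range of the other varieties' absent sets from 32.3 to 39.8%. Where the sites were at least 20 nt apart, the depth of the stretch between them could be set against the depth of the shared part of the exon. The median of this ratio was 75.8% for the 12 shortened Harrington-only exons and 73.6% for 62 shortened Harrington-absent exons. In 49 lengthened Harrington-absent exons it was 19.4%, against 30.3% in the lengthened shared events and 13.3% over all lengthened events. The lengthened exons in the absent sets of Bass, Stirling and Baudin had medians of 29.3%, 11.99% and 21.3%. The value of Harrington lay inside this range. The stretch added to an exon was thus usually covered at a lower depth than the exon itself.

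The genes of the Harrington-only events were 32, each with 1 event. The deepest A5S event was in MLOC_51591, annotated as Annexin 2, a protein of the family that binds membrane phospholipids in the presence of calcium. In this gene an exon of 213 nt on LG01 (36319224 to 36319436 in the Morex assembly, IBSC) was lengthened by 162 nt, with a depth of 151 at 24 h and 678 at 48 h. The same annotated exon was listed through other events in 5 other libraries, at depths of 122 in Baudin and 299 in Stirling at 24 h, and 577 in Bass, 565 in Stirling and 544 in Baudin at 48 h, so Harrington lay between the others at 24 h and above them at 48 h. The added stretch had 2.19% of the depth of the shared part. MLOC_51591 also had a Harrington-absent event, an exon on the 5′ side lengthened by 762 nt and listed at 48 h in Bass (151), Stirling (117) and Baudin (166).

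The deepest A3S event was in MLOC_57334, whose exon lost 24 nt and had a depth of 112 at 24 h and 486 at 48 h. Its annotated exon was in no other library's list, and the gene had 1 other event outside Harrington. MLOC_16842 followed, with a 10 nt shortening at 135 and 143, and this gene was not listed in any other variety. In MLOC_7405 an exon was shortened by 51 nt at 111 and 47.8. Its exon had depths of 41.9 in Stirling at 48 h, 98.3 in Baudin at 24 h and 47.1 in Baudin at 48 h, close to Harrington at the same times. The next were MLOC_61064, an adenosine kinase-like protein (9 nt shorter, 54.1 and 105), and MLOC_62705 (15 nt longer, 47.1 and 99.5).

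Among the A5S events, MLOC_77763 had 5 nt added at depths of 227 and 95.4, and MLOC_34350 had 424 nt added at 99.6 and 86.3. The annotated exon of MLOC_34350 was at 54.8 to 78.3 in 4 other libraries, all below both Harrington values. MLOC_69486 lost 18 nt at 30.7 and 43.7. MLOC_56091, an RNA-binding protein, lost 5 nt at 52.4 and 20.2, beside an exon depth of 39.7 and 31.6 in Baudin. The longest change of the set was in MLOC_37037, where 1357 of 1361 nt were removed and the remaining form of 4 nt had a depth of 2 in both libraries, the lowest depth in any list.

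Further described genes of the Harrington-only events were MLOC_51932 (Auxin response factor 30), MLOC_52439 (myb domain protein 59), MLOC_58318 (5-hydroxyisourate hydrolase, an enzyme of uric acid breakdown) and MLOC_67953 (a putative ATP-binding protein of an ABC transporter). MLOC_58318 lost 75 nt at 35.0 at 24 h and 99.1 at 48 h, with an exon depth of 71.4 in Baudin at 48 h. MLOC_52439 lost 58 nt at depths of only 3.55 and 5.71, and MLOC_67953 lost 88 nt at 9.80 and 9.40. In all, 8 of the 32 events had a mean depth under 10. Before scaling for library size, 19 were deeper at 48 h than at 24 h, and 10 differed by 2-fold or more between the times. The same counts between the times over all events listed in both Harrington libraries are not given here. These counts are therefore not called a trait of the Harrington-only events.

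**Figure D4:**
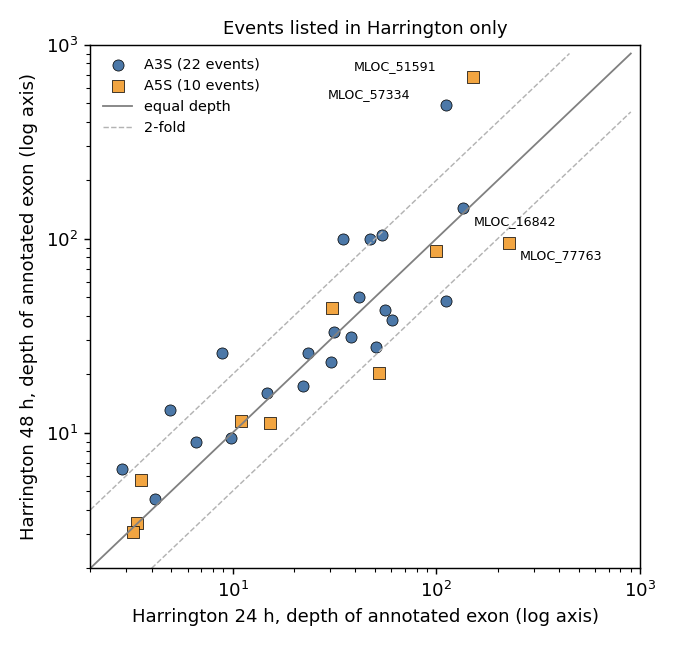
Depth of the annotated exon of each of the 32 Harrington-only events in Harrington at 24 h (horizontal, log axis) and 48 h (vertical, log axis), as circles for A3S and squares for A5S, with lines of equal depth and of a 2-fold difference. MLOC_51591 and MLOC_57334 lie above the 2-fold line and MLOC_77763 below it.

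Harrington-only events were not limited to genes that the other varieties lacked. The gene had another listed event outside Harrington for 20 of the 32 (62.5%, 45.3 to 77.1%), and the same annotated exon was listed outside Harrington for 13. At 5 of these exons another alternative site was used. MLOC_11785 is an example chosen after its values were seen: an exon of 87 nt was shortened by 19 nt only in Harrington (15.3 and 11.2), while a shortening of the same exon by 15 nt was listed in all 8 libraries. In the other 6 libraries the depth of this exon was 9.26 to 21.8, and the Harrington values lay within that range.

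For the Harrington-absent events the corresponding question is whether the gene and the exon were seen in Harrington at all. The gene was listed in Harrington with another event for 97 of the 242 (40.1%, 34.1 to 46.4%), beside 44.5 to 49.7% in the absent sets of the other varieties. For the other 145 no depth of any exon of the gene in Harrington was given, so a missing site and a transcript with few reads cannot be told apart. The annotated exon itself was listed in Harrington for 60 events, at a depth of at least 10 for 54 of them, and for 28 events Harrington had another alternative site at the same exon. Over the 57 events whose exon was listed at the same time in Harrington and in another variety, the scaled log2 depth of Harrington minus that of the others had a median of -0.11 (quartiles -0.44 and 0.15). It was lower in Harrington for 36 of them. It was at least 2-fold lower for 3 (MLOC_38749, MLOC_56451 and MLOC_26911, the last named after its values were seen) and at least 2-fold higher for 1 (MLOC_81936, likewise). In the absent sets of Bass, Stirling and Baudin the corresponding median log2 differences were -0.02, 0.06 and -0.17, so that of Harrington lay inside their range. In these bulk libraries, fewer cells of a type and less RNA per cell cannot be told apart. Most Harrington-absent exons that could be measured in Harrington thus had a depth within 2-fold of that in the other varieties.

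The clearest of the 3 lower exons was in MLOC_38749, which has no description and was the only gene with 3 Harrington-absent events. All were A3S on LG15, plus strand: an exon of 17 nt (82731550 to 82731566) lengthened by 26 nt in all 6 other libraries, an exon of 103 nt (82731340 to 82731442) shortened by 41 nt in 4, and an exon of 42 nt (82730843 to 82730884) lengthened by 12 nt in 3. The exon of 103 nt had a depth of 10.5 at 24 h and 13.9 at 48 h in Harrington, against 42.1 and 59.1 in Bass, 39.8 and 28.9 in Stirling and 43.9 and 45.2 in Baudin. In the exon of 88 nt before it (82731150 to 82731237) the values were 6.14 and 6.83 in Harrington, 33.3 and 21.0 in Bass, 31.3 and 16.6 in Stirling and 36.5 and 26.7 in Baudin. Harrington was below every other library for both exons. For the exon of 78 nt (82730957 to 82731034) it was again the lowest, with 10.01 and 5.99 against 14.9 to 19.3, whereas for the exon of 42 nt its depths of 5.14 and 6.38 overlapped with 5.55 to 9.29 in the others.

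The depth of constitutive exons was tested with limma over the 177 exons listed in all 8 libraries, with the mean of each variety as the unit. With a Benjamini-Hochberg adjusted p-value under 0.05, no exon was called, 0% in either direction, and 14 had an unadjusted p-value under 0.05. The smallest adjusted p-value by limma, 0.11, was that of the 88 nt exon of MLOC_38749, which was lower in Harrington by a log2 difference of -1.88 ± 0.25 (SE, 1 variety against 3). The exon was called (limma adjusted p = 0.00998) when the 8 libraries entered the fit one by one with time as a block, which takes the 2 libraries of a variety as independent, and without Baudin (0.00723). Without Baudin the difference was smaller and its SE larger (-1.77 ± 0.42), with the same SE for both exons called in that fit, so this call rests on a spread that limma pooled over exons. The reads that these exons share with the alternative forms were not removed, and MLOC_38749 was singled out because it has 3 members.

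**Figure D5:**
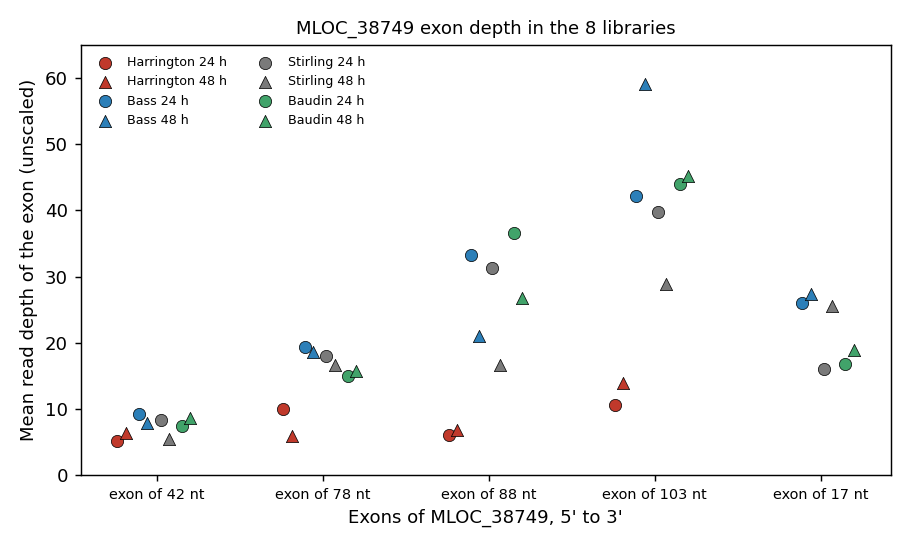
Mean read depth, not scaled for library size (vertical axis), of the 5 exons of MLOC_38749 listed in at least 6 libraries, ordered from 5′ to 3′, for each variety at 24 h (circles) and 48 h (triangles). Harrington is at 6.14 to 13.9 in the exons of 88 and 103 nt, where the other libraries are at 16.6 to 59.1, and is not listed for the exon of 17 nt.

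The 10 Harrington-absent events listed in all 6 other libraries were 9 A3S and 1 A5S. Besides MLOC_38749, the deepest was MLOC_7043, described as subunit 4 of succinate dehydrogenase, the respiratory complex that links the citric acid cycle to electron transport. Its exon on LG04 (55948506 to 55948895, minus strand) was shortened by 9 nt at depths of 485.6 and 1012 in Bass, 284.6 and 598.7 in Stirling and 605.0 and 931.4 in Baudin at 24 h and 48 h. The annotated exon was not listed in Harrington, but the constitutive exon of the event was at 93.3 in Harrington at 48 h, beside 179, 106.5 and 233 in Bass, Stirling and Baudin. A 2nd subunit gene of this complex, MLOC_60963 (subunit 3), was Harrington-absent as well, with 30 nt added at 873 in Bass at 48 h, 578 and 777 in Stirling at 24 h and 48 h and 431 in Baudin at 24 h. No event of MLOC_60963 was listed in Harrington.

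Changes of 3 nt made up 4 of these 10 events, beside 20.9% of the 724 shared events and 7.23% of all events. Their share among all 237 events listed in the 6 other libraries is not given here, so the count is not called a trait of the 10. These 4 changes were in MLOC_56037 (a protein with a DUF124 domain, 90.1 to 150), MLOC_60056 (an F-box protein, a class that selects substrates for ubiquitination, 58.6 to 135), MLOC_64788 (unknown protein, 50.02 to 116) and MLOC_18712 (an ATP-binding microtubule motor protein, 13.8 to 27.0). In Harrington the annotated exon of MLOC_56037 was listed at 24 h with a depth of 103 through another event, inside the range of the others, and that of MLOC_60056 with 50.3, below it. The rest were MLOC_61417 (111 nt longer, 13.5 to 41.6), MLOC_55097 (a RING finger and WD repeat protein, 162 nt longer, 11.7 to 21.3), MLOC_13246 (leucine carboxyl methyltransferase family, 23 nt shorter, 8.38 to 14.6) and the A5S event of MLOC_52075 (12 nt shorter, 2.58 to 10.5). The annotated exon of MLOC_52075 carries a mark in the lists, written noref, whose meaning is not given in the sources used here.

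The gene of viviparous 1, MLOC_69727, encodes a transcription factor of abscisic acid responses in seeds. Its A5S event, an exon of 1521 nt on LG02 (39265598 to 39267118, minus strand) lengthened by 92 nt, was listed in 5 of the 6 other libraries at a narrow range of depth, 28.6 in Bass at 48 h, 29.3 and 28.5 in Stirling and 25.95 and 29.6 in Baudin. The added stretch had 25.8% of the depth of the shared part. This event was not in either Harrington list, nor in Bass at 24 h. An A3S event of the same gene, which removes 3 nt from the next exon but 1, was listed in all 8 libraries. The exon between the 2 changes had unscaled depths of 11.7 and 24.2 in Harrington at 24 h and 48 h. The others were at 16.5 to 23.3 and 24.97 to 35.2, so Harrington was the lowest at both times. After scaling for library size, Harrington was the lowest at 24 h, but at 48 h Baudin was lower. Averaged over the times, the scaled log2 depth was 4.16 in Harrington and 4.27 to 4.80 in the others. By limma over all 374 exons listed in all 8 libraries this difference was -0.36 ± 0.27 on the log2 scale (SE) and was not called (adjusted p = 0.81).

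MLOC_51932, Auxin response factor 30, of a family of transcription factors that bind the promoters of auxin-responsive genes, was 1 of 3 genes with members in both sets. In both Harrington libraries an exon of 85 nt was lengthened by 12 nt at depths of 23.5 and 25.8. In the others an exon of 1040 nt (37461099 to 37462138, LG01) was shortened by 7 nt, at 48.8 in Bass at 48 h, 60.4 and 44.2 in Stirling and 52.3 and 65.1 in Baudin. The exon of either event was not listed on the other side, so no depth could be compared. MLOC_14470, the third, lost 244 nt in Harrington (60.4 and 37.9) and 75 nt from another exon in 4 other libraries (24.9 to 54.7).

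Deep exons were among the Harrington-absent events as well, with 15 events over a depth of 500. The transcription factor gene MLOC_36345 had an exon of 258 nt on LG15 (62380287 to 62380544) lengthened by 20 nt in 5 libraries at 893 to 1053. In Harrington the same annotated exon was at 961 and 950, and 5 other events of the gene were listed, but not this one. The added stretch of 20 nt had 0.252% of the depth of the exon in the libraries that listed it. A like case was MLOC_64594, the deepest member, with 35 nt added at 10239 in Bass, 4636 in Stirling and 9967 in Baudin at 48 h, and an exon depth of 10389 in Harrington at 48 h. In MLOC_54031, a lipoxygenase, which oxidises unsaturated fatty acids, 474 nt were added in 4 libraries at 421 to 624, and Harrington had the exon at 726 and 422. For these 3 genes the annotated exon was read in Harrington at a depth near or above that of the others, while the alternative form was not listed.

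The remaining deepest members were not listed for their exon in Harrington, except MLOC_77840. They were MLOC_32946 (60S ribosomal protein L7a, 5 nt longer, 2731 to 3313 at 24 h), MLOC_5950 (30 nt longer, 373 to 1777), MLOC_22808 (an aquaporin, a water channel, 13 nt longer, 732 to 1086 at 48 h), MLOC_66415 (77 nt shorter, 151 to 1429), MLOC_59273 (58 nt shorter, 1165 to 1214) and MLOC_75626 (Serine carboxypeptidase 1, 8 nt longer, 241 to 384 at 24 h). MLOC_77840 lost 79 nt at 709.7 to 1199 in 5 libraries, and its exon was at 420 and 695 in Harrington, below all of them before scaling. After scaling for library size, Harrington was below the others of the same time, but at 48 h it was above Bass and Baudin at 24 h.

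Of the 230 genes of the Harrington-absent events, 11 had at least 2 such events. In 3 of them an A3S and an A5S event lengthened both exons beside the same intron and the added stretches overlapped, so that together they spanned the whole intron. MLOC_62089, a polypyrimidine tract-binding protein, of a family known to regulate splicing, had 1351 nt and 341 nt added inside an intron of 1627 nt, with depths of 23.9 to 46.2 and 4.58 to 5.71 of the annotated exons. MLOC_57406, Ubiquitin-conjugating enzyme E2 7, had 675 nt and 271 nt added inside an intron of 872 nt, at 93.4 to 245 and 11.9 to 30.1. In Harrington the A3S exon of MLOC_57406 was at 98.7 at 24 h and 62.5 at 48 h, below the others of the same time. Its A5S exon was at 18.9 in Harrington at 24 h, inside the range of the others. MLOC_56451, siroheme synthase, which makes the cofactor of nitrite and sulphite reductase, had 1223 nt and 1496 nt added inside an intron of 1687 nt, both at 24 h in all 3 other varieties, at 536 to 632 and 12.2 to 22.5. In Harrington at 24 h the same 2 exons of MLOC_56451 were at 354 and 5.94, below the 3 others.

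The other genes with 2 events included MLOC_66335, a cyclin dependent kinase inhibitor, a class that restrains the cell cycle, with 1084 and 1416 nt added to the same exon (27.3 to 98.3). In Harrington this exon was at 63.8 at 24 h. MLOC_54352, a cytochrome P450 family protein, had 42 nt removed from 1 exon (31.6 to 235) and 7 nt added to another (43.5 to 254). MLOC_71132, methylthioribose-1-phosphate isomerase, an enzyme of methionine salvage, had 18 nt and 21 nt added to different exons, in each case at 24 h in all 3 other varieties (82.4 to 118 and 57.6 to 85.3). MLOC_52303 (O-fucosyltransferase family), MLOC_18092, MLOC_61417 and MLOC_62808 completed the list.

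Descriptions were found for 905 of the 4634 listed genes, for 102 of the 230 genes of the Harrington-absent events and for 7 of the 32 of the Harrington-only events. They were made mainly for genes with events in several varieties, so they favour the first set, and the word lists below were chosen with earlier results known. Words for carbon and energy metabolism matched 7 of the 102 described genes (6.86%), beside 3.20% of all described genes. These were both succinate dehydrogenase subunits, MLOC_61958 (a sorbitol-6-phosphate dehydrogenase, 24 nt shorter in 5 libraries, 192 to 469), MLOC_54094 (hexokinase-2, which phosphorylates glucose, 26 nt shorter at 48 h in all 3 other varieties, 189 to 313), MLOC_21708 (the D chain of the mitochondrial ATP synthase, 4 nt, mean 73.1), the cytochrome P450 named above, which was matched by the word cytochrome and is not known as an enzyme of carbon or energy metabolism, and MLOC_63781, alpha-amylase, which breaks down starch (5 nt longer in 5 libraries, 4.02 to 6.13). The alpha-amylase event was shallow, and its gene was not listed in Harrington.

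Protein kinase and phosphatase words matched 8 of the 102 genes (7.84%), against 8.95% of all described genes. Among them was MLOC_69212, described as Protein kinase 1 and named SnRK2 by the study. It had 59 nt removed at 125 to 187 in 4 libraries and an exon at 125 and 182 in Harrington. Another was MLOC_56122, a putative serine/threonine protein kinase (429 nt, mean 191). Hexokinase-2, riboflavin kinase (MLOC_12680) and the cyclin dependent kinase inhibitor were counted here by their names although they are not protein kinases. Splicing and RNA-binding words matched 5 genes (4.90% against 3.31%), including a splicing factor 3B subunit (MLOC_36997, 36 nt, mean 34.2), RNA-binding proteins MLOC_59775 and MLOC_72883 and the initiation factor eIF4A (MLOC_61005). Translation factors numbered 3 (2.94% against 1.33%), with MLOC_53556 (eIF-2B subunit epsilon, 26 nt) and MLOC_54618 (eIF3 subunit 2, 29 nt) beside eIF4A. Ribosomal proteins numbered 2 (1.96% against 3.31%), L7a and L18a (MLOC_54834, 9 nt shorter, 648 to 865).

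Ubiquitin and proteasome words matched 4 genes (3.92% against 3.76%): MLOC_57406, MLOC_60056, MLOC_55097 and a BRE1-like E3 ligase (MLOC_55679, 57 nt, mean 44.9). Transcription factor words matched 4 genes (3.92% against 3.54%), namely MLOC_36345, viviparous 1, a CCAAT-box-binding factor (MLOC_58525, 8 nt, mean 102) and an RCC1 family protein with a zinc finger (MLOC_63401). Membrane transport and trafficking words matched 4 (3.92% against 3.20%), of which the nucleolar GTP-binding protein MLOC_54468 is no transporter. The others were MLOC_79983 (nodulin MtN21 family, 44 nt), MLOC_79115 (SEC22-like, 43 nt) and MLOC_56261 (an ABC transporter family protein, 7 nt). Hormone signalling words matched 3 (2.94% against 0.99%), namely Auxin response factor 30, viviparous 1 and, through letters within its name, the carboxymethylenebutenolidase-like MLOC_61197, which is not a hormone gene. They did not match MLOC_69212 of the kinase list, which the study places in hormone signalling as SnRK2. The chaperone list had 1 gene (0.98% against 0.55%), MLOC_6885 (dnaJ, 3 nt shorter at 24 h, 150 to 254). Chosen after its values were seen, MLOC_38196, a regulator of nonsense transcripts-like protein, of the pathway that removes transcripts with early stop codons, lost 12 nt in 5 libraries at 49.4 to 156, and its exon was not listed in Harrington. No list can be called particular to Harrington from these shares.

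By the LG labels that the lists give for sequences, both sets were spread much as all events were, with some exceptions in the small Harrington-only set. LG01 held 37.5% of the Harrington-only, 38.02% of the Harrington-absent and 37.0% of all events. LG10 held 8 of the 32 Harrington-only events (25%) beside 15.8% of all, and LG05 held 3 of them (9.38%) beside 3.16%. LG15 held 9.50% of the Harrington-absent events beside 6.27% of all.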

How the data were processed

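Reads were aligned by the authors to the Morex genome (IBSC) with SOAP2 and junctions were called with SOAPsplice. The authors deposited 1 list per type (A3S, A5S) and library, whose other values are exon coordinates, mean exon depths and covered shares, not scaled for library size. How depth was computed, and reads per junction, are not given in the sources used here. Python 3.11.15 with pandas 2.3.3 was used to read and join the lists. Members and word lists were chosen with earlier results of these data known. Shares have 95% Wilson intervals (scipy 1.17.1). Single values of Harrington were compared with the other 3 varieties by two-sided exact permutation tests, which cannot give p under 0.25. Exon depths were divided by a size factor per library (median ratio to the geometric mean) and tested with limma 3.58.1 in R 4.3.3 (Benjamini-Hochberg). The set rules and the limma fit were tested on simulated data. P-values of the permutation tests and of limma on variety means measure only the spread between varieties, each with 1 library a time. In limma this spread is partly pooled over exons. The limma fit of 8 libraries with time as a block also takes in the spread between libraries of the same variety.

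The genes named were those with 2 or more members, the 5 deepest members per set and type, the members listed in all 6 other libraries, described members matching a word list, and exons called by limma. Others are said to be chosen after their values were seen, and further members listed in 4 or 5 libraries were summarised as counts. Descriptions came from the supplementary tables of the study. Alternatives were a depth of at least 10, the same junction or gene, each other variety left out, each time alone, and other scalings of depth. The absence from Harrington at 48 h alone and the fit of every exon listed in all 8 libraries were added after seeing the data. No genome sequence was used, and other types of alternative splicing were not analysed here.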

Additional observations from a re-analysis of the deposited data

Results flagged for a closer look

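Among the 4 varieties, the 242 events absent from Harrington stood apart from the 153 to 166 absent from each other variety, and so did their share of the events of the other varieties, 25.1%. The 94 A5S events absent from Harrington (54 to 58 in the others) and the median site distance of all its absent events, 16.5 nt (15 nt in each of the others), stood apart in the same way. Dixon's test for 4 values flags about 1 in 20 groups by chance when any of the 4 may be the outlier. Here only outlying values of Harrington were flagged, 46 measures were looked at, and these 4 are not independent of one another. The number of A5S events was higher at 48 h than at 24 h by 12 in Harrington, while it fell by 302 in Bass, 119 in Stirling and 152 in Baudin, a difference that was not tested.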

How the results depend on the processing

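The labels give no replicate numbers, so libraries could be matched only by time, as in the limma fit with time as a block. With a depth of at least 10 on both forms, 25 Harrington-only and 202 Harrington-absent events were found, the junction alone gave 32 and 242, and the gene and type 22 and 259. When 1 other variety was left out the counts were 53 to 58 and 504 to 559, since the rule then asks less. Events in either Harrington library and in no other numbered 1081. The 48 h libraries alone gave 106 Harrington-absent events, and 410 were absent from Harrington at 48 h, whatever its 24 h list held. With a variety left out, the A3S share was 67.2 to 69.8% and 59.9 to 65.5%, the A3S median distance 11 to 17.5 nt and 12 to 13 nt, the A5S median distance 18 to 20 nt and 23.5 to 29 nt, and the median depth 25.1 to 35.5 and 28.6 to 30.4, for the Harrington-only and the Harrington-absent events. The A5S median distance of the Harrington-absent events was 39 nt with a depth of at least 10. In limma, 1 exon was called with 8 libraries and time as a block (MLOC_38749), and 0 to 2 with a variety left out. The 2 without Baudin were MLOC_38749 and MLOC_74793 (log2 difference -1.54, adjusted p = 0.0291), whose adjusted p-value was 0.76 with Baudin. The adjusted p-value of the MLOC_38749 exon by limma was between 0.00723 and 0.39 over all alternatives, and its difference was negative in each. Scaling by mapped reads moved the median difference of all exons to -0.18. Depth limits these lists, because an event that is not listed has no measured depth.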
